A study of Drosophila melanogaster with 6 samples.

Results

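The cytochrome P450 genes of Drosophila SL2 cells are described here, with cells depleted of Iswi set against control cells. The members were chosen by name: every probe set to which the platform annotation gave exactly 1 gene symbol beginning with Cyp and a number. This took in 85 probe sets for 83 genes, of 11893 genes with a probe set of 1 symbol. Of the 83 genes, 81 carry a P450 name with a subfamily letter and fall into 20 families. The other two, Cyp1 and Cyp40, encode cyclophilins, which are unrelated protein-folding enzymes, and they are counted apart. The naming rule itself used no measured value, but the family was picked with the ISWI against GST results of these arrays known, so its counts are a description and no test of the family as a whole was made.

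SL2 is a line derived from late Drosophila embryos with features of haemocytes, the insect blood cells. All cells were cultured in Schneider medium with serum and were given 10 micrograms of dsRNA for 1 hour without serum, followed by serum-containing medium and harvest after 7 days. In the ISWI group (3 arrays) the dsRNA was directed against ISWI, the ATPase of several nucleosome remodelling complexes, and in the GST group (3 arrays) against GST. The series design calls the replicates biological, p-values measure the spread between these samples, no untreated cells were measured, and where on the transcript the dsRNA lay was not given in the sources used here.

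P450 enzymes are haem proteins that insert an oxygen atom into small molecules. Most insect P450s sit in the endoplasmic reticulum and draw electrons from a reductase or from cytochrome b5, while a smaller mitochondrial clan, to which the Cyp12 family belongs, draws them from ferredoxins. Members of the Cyp6, Cyp9, Cyp12 and Cyp28 families are best known for breaking down plant toxins and insecticides, Cyp4 enzymes for oxidising fatty acids and other lipids, and a few others for making or inactivating the moulting hormone ecdysone. Many lie in tandem groups that arose by gene duplication.

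The labels were checked on the targeted transcript. Iswi had log2 values of 7.66, 7.74 and 7.16 on the ISWI arrays, against 10.53, 10.54 and 10.47 on the GST arrays, and so stood at 12.6% of the GST level (limma adjusted p = 7.61e-06, exact two-sided permutation p = 0.1, the smallest that 3 against 3 allows). The haemocyte markers Hml, Pxn, NimC1, eater, crq, Sr-CI, srp, He and Col4a1 were above a log2 value of 4 on all 6 arrays; 2 of these 9 were called higher and 3 lower in ISWI cells, where 23.4% of all tested genes were higher and 17.6% lower, and their summed log2 values were 113.9 to 115.5 in ISWI cells and 115.3 to 115.5 in GST cells. The part of these changes and of the array differences below in the P450 results was not tested. The ISWI arrays held 7364 to 7416 probe sets above this level and the GST arrays 7331 to 7334. The difference between the 3' and 5' control probe sets of eIF-4a, a sign of RNA quality, was 2.26 on ISWI replicate 2, 1.91 and 1.86 on the other two ISWI arrays, and 1.69 to 1.85 on the GST arrays.

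Most P450 genes gave no signal above the low end of the scale. Of the 81 genes, 51 stayed at or below a log2 value of 4 on all 6 arrays, between 1.98 and 3.30, and 44 of these moved by less than 0.1 over the 6 arrays. The deposited values hold dim probe sets at such a nearly constant floor, so these values say nothing about a change. Genes at the floor included Cyp6g1, known for insecticide resistance in flies, Cyp4g1, which makes cuticular hydrocarbons, Cyp6a2 and Cyp6a8, which are induced by xenobiotics in flies, and all 6 genes of the Cyp313 family. Of 19 genes in the families from Cyp301 to Cyp318, 1 (Cyp310a1) was tested. Another 3 genes (Cyp6a13, Cyp318a1 and Cyp4p3) passed the level of 4 on 1 or 2 arrays.

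The remaining 27 genes were above 4 on at least 3 arrays and were tested. The test was limma over all 7390 probe sets that passed this filter, with Benjamini-Hochberg adjustment over all of them, and a gene is called higher or lower where its adjusted p is under 0.05. Of the 27 genes, 15 rose and 5 fell in ISWI cells, and 7 did not pass. Over all 5997 tested genes, 23.4% were called higher and 17.6% lower. By fitted folds, 13 of the called genes were at least 1.5-fold higher and 2 at least 1.5-fold lower, against 7.2% and 4.85% of all tested genes, and 11 were at least 2-fold higher, against 3.54%. Where a whole group lay at or below 4, a fold is known only as a lower bound. With those genes at their bounds 12 were at least 1.5-fold and 9 at least 2-fold higher. The shares of all tested genes use fitted folds throughout, so these bounded counts have no matching share. The median fitted log2 fold change was 0.59 over the 27 P450 genes, 0.44 with 3 of them at their bounds and 0.38 over the 22 genes above 4 on all 6 arrays, and it was 0.03 over all tested genes. Leaving out 1 array at a time gave 11 to 16 higher and 3 to 5 lower, the 3 lower without GST replicate 3.

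The filter itself favours genes that are bright in 1 group. Of the tested genes, 3 (Cyp6d2, Cyp6a9 and Cyp4d20) were at or below 4 on every GST array and so entered through the ISWI arrays. Counting the 22 genes above 4 on all 6 arrays, 12 were higher, 5 lower and 5 not called, against 22.8% higher and 17.6% lower among all genes filtered this way. In these bulk cultures, a higher level in each cell and a larger share of cells with the transcript cannot be told apart.

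**Figure D1:**
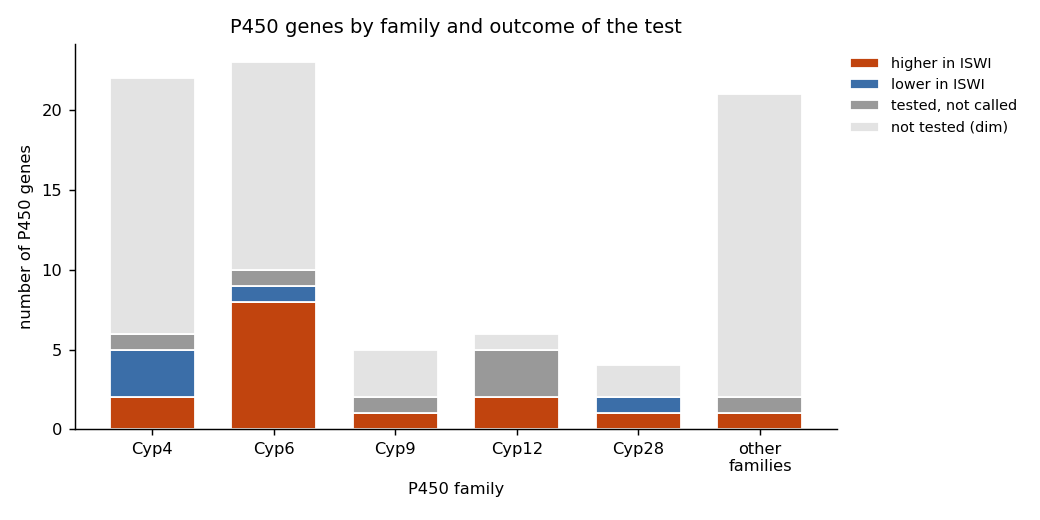
Number of P450 genes (y axis) by family (x axis), divided by the outcome of the test of ISWI against GST. In Cyp6, 8 of 10 tested genes were higher and 1 lower, while in Cyp4 2 of 6 were higher and 3 lower. Over all tested genes 23.4% were higher and 17.6% lower. Cyp6d2 and Cyp4d20, called higher, and Cyp6a9, not called, entered the test only through the ISWI arrays. Too dim to be tested were 54 of the 81 genes.

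The Cyp6 family held most of the rises: 8 of its 10 tested genes rose, 1 fell and 1 did not pass, where 23.4% of all tested genes were higher and 17.6% lower. The median fitted log2 fold change was 1.44, or 1.10 with the genes at the floor in GST cells (Cyp6d2 and Cyp6a9) at their bounds. Among Cyp6 genes above 4 on all 6 arrays, 7 of 8 rose and 1 fell. The 3 genes of the Cyp6d subfamily all rose. Cyp6d5 had log2 values of 8.48, 8.53 and 8.56 on the ISWI arrays, against 5.03, 4.86 and 4.42 on the GST arrays. The groups lay far apart, and the log2 fold change of 3.75 (standard error 0.15, limma adjusted p = 4.23e-06), a 13.5-fold rise, was the largest of any P450 gene tested. Its 3 ISWI values had an SD of 0.04, against 0.32 for the GST values, which lay nearer the level of 4.

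The other Cyp6d genes moved less. Cyp6d4 read 9.47, 9.58 and 9.66 in ISWI cells, against 8.68, 8.71 and 8.76 in GST cells, a log2 fold change of 0.86 (standard error 0.07, limma adjusted p = 8.75e-05). Cyp6d2 read 4.44, 4.81 and 5.07 in ISWI cells, against 2.85, 3.05 and 2.97 in GST cells. Every GST value of Cyp6d2 was thus below the level of 4, so its rise (limma adjusted p = 0.000275) is given only as at least 1.71-fold. Cyp6d4 and Cyp6d5 are on chromosome arm 3R and Cyp6d2 is on 2R, so these genes do not form a tandem group.

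The largest P450 tandem group of the genome is 9 genes in a row on arm 2R with no other protein-coding gene between them. Of its 5 tested genes 4 were called, all higher, where 23.4% of all tested genes were higher. In gene order (genome Release 6) the group runs Cyp6a22, Cyp6a17, Cyp6a23, Cyp6a19, Cyp6a9, Cyp6a20, Cyp6a21, Cyp6a8 and Cyp317a1. Cyp6a17, which in flies affects temperature preference, read 11.32, 11.23 and 11.18 in ISWI cells, against 9.50, 9.53 and 9.63 in GST cells, and had a log2 fold change of 1.69 (standard error 0.06, limma adjusted p = 3.09e-06). Its neighbour Cyp6a23 read 9.28, 9.51 and 9.43 in ISWI cells, against 7.80, 7.73 and 7.83 in GST cells, a log2 fold change of 1.62 (standard error 0.08, limma adjusted p = 8.45e-06). These neighbouring genes had changes of nearly the same size, and their 95% intervals, 1.54 to 1.83 for Cyp6a17 and 1.44 to 1.80 for Cyp6a23, overlapped. They are close paralogs, and whether their probe sets share signal was not tested.

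Cyp6a20, linked in flies to male aggression, read 10.40, 10.36 and 10.73 in ISWI cells, against 9.26, 9.11 and 9.11 in GST cells (log2 fold change 1.34, standard error 0.10, limma adjusted p = 7.13e-05). Cyp6a22, at the edge of the group, read 5.92, 6.26 and 6.55 in ISWI cells, against 4.68, 4.41 and 5.01 in GST cells (log2 fold change 1.54, standard error 0.21, limma adjusted p = 0.000881). In all 4 genes each ISWI array lay above each GST array, as was so for 31.2% of all tested genes. Cyp6a9, which lies between Cyp6a23 and Cyp6a20, read 4.03, 4.75 and 4.76 in ISWI cells, against 3.65, 3.998 and 3.95 in GST cells, and did not pass (limma adjusted p = 0.0514). Its GST values were all at or below 4, so the ISWI mean is given only as at least 1.43-fold higher. It was called under 4 of 14 alternatives (among them without ISWI replicate 1, with array weights and with the mean of a gene's probe sets), and its limma adjusted p ranged from 0.00713 to 0.156.

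No rise was called elsewhere in the tandem group or in the genes beside it. Cyp6a19, Cyp6a21, Cyp6a8 and Cyp317a1, which stand between and after the called genes, were at the floor on all 6 arrays, from 2.04 to 2.87, where a change cannot be read. Of the 3 protein-coding genes on each side, 3 were tested and none was higher: Pcf11, just before Cyp6a22, fell by 0.41 on the log2 scale (limma adjusted p = 0.0217), Kank, just after Cyp317a1, fell by 0.21 (limma adjusted p = 0.0420), and CG33506 did not pass (limma adjusted p = 0.590). Among these flanking genes the unadjusted limma p was under 0.05 for the same genes that were called and for no higher one. Within the tandem group Cyp6a9, higher but not called, had an unadjusted limma p of 0.0209.

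**Figure D2:**
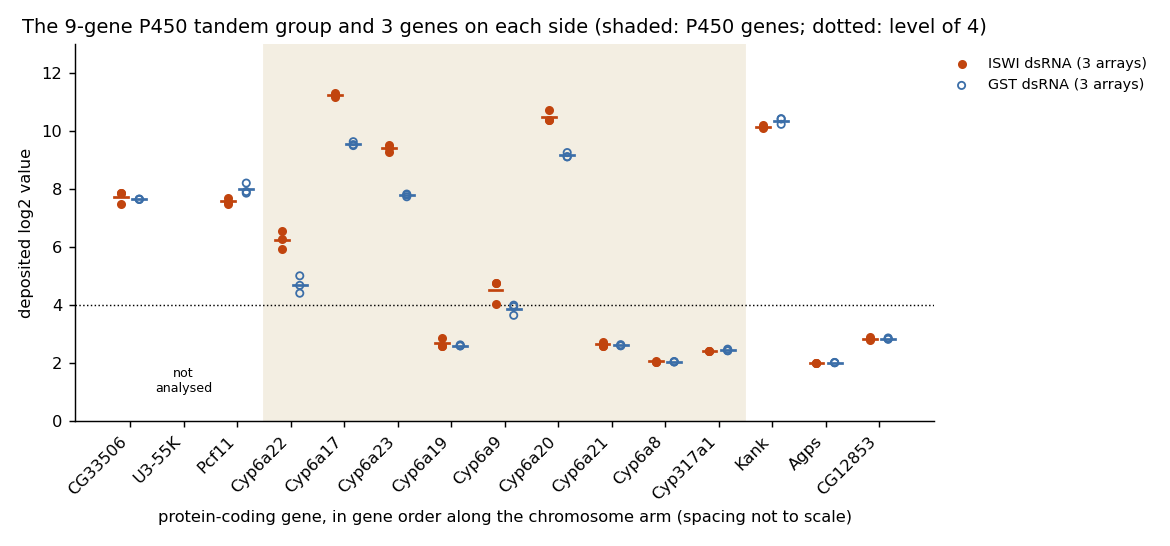
Deposited log2 value (y axis) of the genes of the 9-gene P450 tandem group and of 3 genes on each side (x axis, gene order, not to scale), with ISWI arrays as filled points left of GST arrays as open points and lines at the group means. Cyp6a22, Cyp6a17, Cyp6a23 and Cyp6a20 were higher on every ISWI array, as were 31.2% of all tested genes. At the floor in both groups lay 4 of the 9 P450 genes.

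Other Cyp6 genes were few. Cyp6a14, on 2R outside this group, read 8.004, 7.82 and 8.61 in ISWI cells, against 7.58, 7.57 and 7.51 in GST cells (log2 fold change 0.59, standard error 0.18, limma adjusted p = 0.0357). ISWI replicate 3 was the high value. The Cyp6a14 call was lost under 6 of 16 alternatives, among them without any 1 of the GST arrays, at adjusted p = 0.0883 to 0.105. Cyp6a13, the gene next to it, was dim and untested. Cyp6u1 was the only Cyp6 gene called lower, at 8.43, 8.55 and 8.74 in ISWI cells, against 8.87, 9.01 and 8.89 in GST cells. It fell by 0.35 on the log2 scale (standard error 0.09, limma adjusted p = 0.0176), and its call was lost without GST replicate 2 (adjusted p = 0.0757) and without GST replicate 3 (adjusted p = 0.0505).

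**Figure D3:**
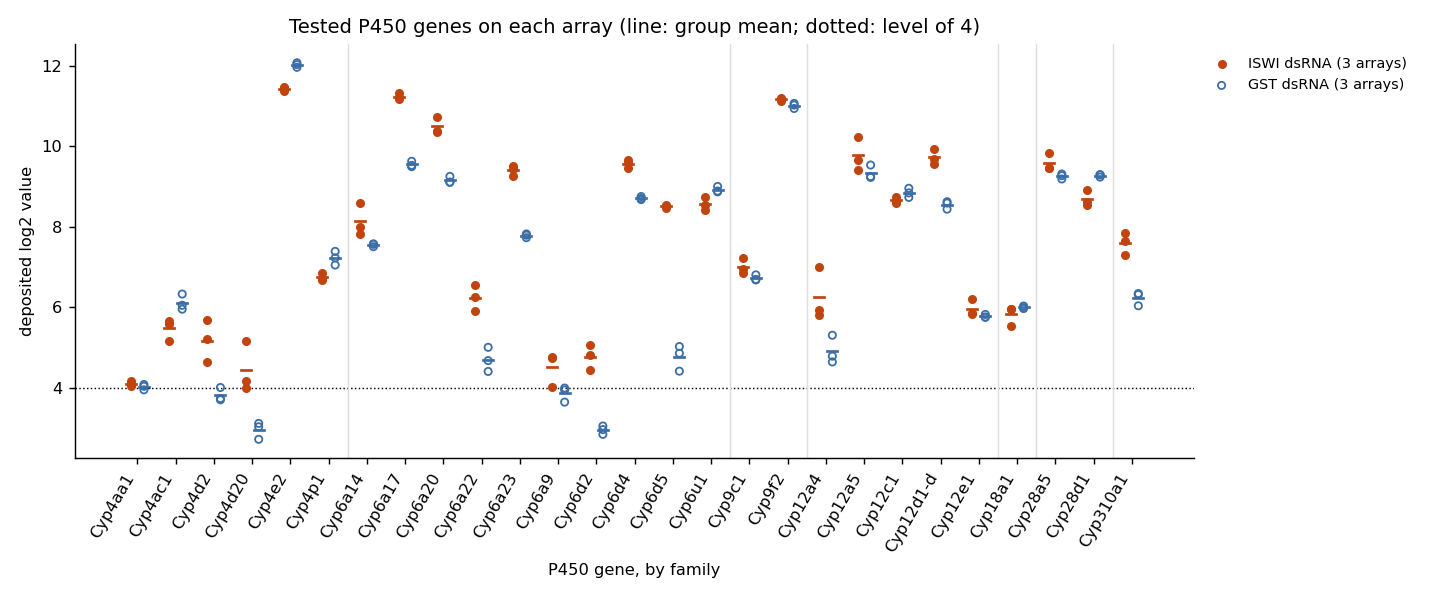
Deposited log2 value (y axis) of each of the 27 tested P450 genes (x axis, ordered by family, vertical lines between families), with the 3 ISWI arrays as filled points left of the 3 GST arrays as open points and lines at the group means. The groups did not overlap for 18 genes higher and 6 genes lower in ISWI cells, against 31.2% and 23.7% of all tested genes (54.9% in either direction). Among the 18, Cyp6d2, Cyp6a9 and Cyp4d20 passed the filter only through the ISWI arrays, which fixed their lack of overlap in advance.

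The Cyp4 family went both ways, with 3 of 6 tested genes lower, 2 higher and 1 not called. Over all tested genes 17.6% were lower and 23.4% higher. Cyp4e2 read 11.44, 11.48 and 11.38 in ISWI cells, against 12.08, 12.03 and 11.97 in GST cells. It fell by 0.59 on the log2 scale (standard error 0.05, limma adjusted p = 0.000106), with tight replicates in both groups. Cyp4p1 read 6.72, 6.67 and 6.86 in ISWI cells, against 7.39, 7.23 and 7.05 in GST cells, and fell by 0.48 (standard error 0.11, limma adjusted p = 0.0109). Cyp4ac1 read 5.17, 5.60 and 5.67 in ISWI cells, against 5.96, 6.05 and 6.33 in GST cells, and fell by 0.64 (standard error 0.16, limma adjusted p = 0.0177). Its call was lost without GST replicate 3 (limma adjusted p = 0.0690) and with no filter (limma adjusted p = 0.0569). Each of these 3 genes is the single tested member of a group of 3 tandem genes. The groups of arrays did not overlap in any of them, as was so, lower in ISWI cells, for 23.7% of all tested genes.

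Both Cyp4 genes that rose belong to the Cyp4d subfamily, whose other 4 genes were at the floor. Cyp4d2, on the X chromosome, read 4.64, 5.68 and 5.21 in ISWI cells, against 3.71, 3.74 and 4.01 in GST cells (log2 fold change 1.36, standard error 0.25, limma adjusted p = 0.00429). Only GST replicate 3 passed the level of 4 in GST cells, so this fitted fold rests on values near the floor. Cyp4d20, on 3L, read 4.01, 4.18 and 5.15 in ISWI cells, against 3.12, 2.72 and 3.03 in GST cells (limma adjusted p = 0.00594). All its GST values were below 4 and its rise is given as at least 1.36-fold, with ISWI replicate 3 the high value. Without these dim genes, under a level of 5 or a level of 4 on all 6 arrays, no Cyp4 gene was called higher by limma or had an unadjusted p under 0.05 in that direction. Cyp4aa1, at 4.05 to 4.16 in ISWI cells and 3.95 to 4.09 in GST cells, did not pass.

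In the mitochondrial Cyp12 family 5 of 6 genes were tested, of which 2 rose and 3 did not pass. Over all tested genes 23.4% were higher and 17.6% lower. Cyp12d1-d, known for insecticide resistance and for induction by xenobiotics in flies, read 9.57, 9.69 and 9.93 in ISWI cells, against 8.59, 8.63 and 8.44 in GST cells. Its log2 fold change was 1.18 (standard error 0.10, limma adjusted p = 0.000117), and the groups lay well apart. It has a near-identical neighbour, Cyp12d1-p, so its signal may come from either copy.

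Cyp12a4, whose higher expression confers resistance to the insecticide lufenuron in flies, read 5.80, 5.93 and 7.02 in ISWI cells, against 5.31, 4.65 and 4.79 in GST cells. Its rise was 1.33 on the log2 scale (standard error 0.33, limma adjusted p = 0.0137), a call lost without GST replicate 2 (adjusted p = 0.0552) and without GST replicate 3 (adjusted p = 0.0535). Its neighbour Cyp12a5 read 9.66, 9.43 and 10.25 in ISWI cells, against 9.54, 9.23 and 9.25 in GST cells, and did not pass (limma adjusted p = 0.113), although it was called without ISWI replicate 2 (adjusted p = 0.0317). In both genes ISWI replicate 3 was the high value, so that without it the log2 fold change was 0.95 for Cyp12a4 and 0.20 for Cyp12a5. Cyp12c1 and Cyp12e1 did not pass, with log2 fold changes of -0.19 and 0.18, and the dimmer Cyp12e1 probe set gave 0.19 and was not called either.

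The 2 tested Cyp28 genes differed in sign. Cyp28d1, implicated in nicotine resistance in flies, read 8.63, 8.92 and 8.54 in ISWI cells, against 9.30, 9.24 and 9.30 in GST cells, and fell by 0.58 on the log2 scale (standard error 0.10, limma adjusted p = 0.00307). Its tandem neighbour Cyp28d2 was at the floor. Cyp28a5 read 9.46, 9.46 and 9.84 in ISWI cells, against 9.32, 9.19 and 9.27 in GST cells, and its rise of 0.33 (limma adjusted p = 0.0435) was lost under 8 of 16 alternatives.

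Cyp310a1, on 2L, was the only tested gene of the families from Cyp301 to Cyp318. It read 7.29, 7.84 and 7.65 in ISWI cells, against 6.35, 6.04 and 6.32 in GST cells, a log2 fold change of 1.36 (standard error 0.15, limma adjusted p = 0.000407), with no overlap between the groups. Cyp18a1, which inactivates ecdysone, did not pass on either of its probe sets, with log2 fold changes of -0.18 and -0.21. In the Cyp9 family Cyp9f2 was called higher by only 0.16 (limma adjusted p = 0.0431), a call lost under 11 of 16 alternatives, and Cyp9c1 did not pass at 0.29. Nearest the threshold on the passing side were Cyp28a5 and Cyp9f2, and on the other side Cyp6a9 (adjusted p = 0.0514) and Cyp9c1 (adjusted p = 0.0798).

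**Figure D4:**
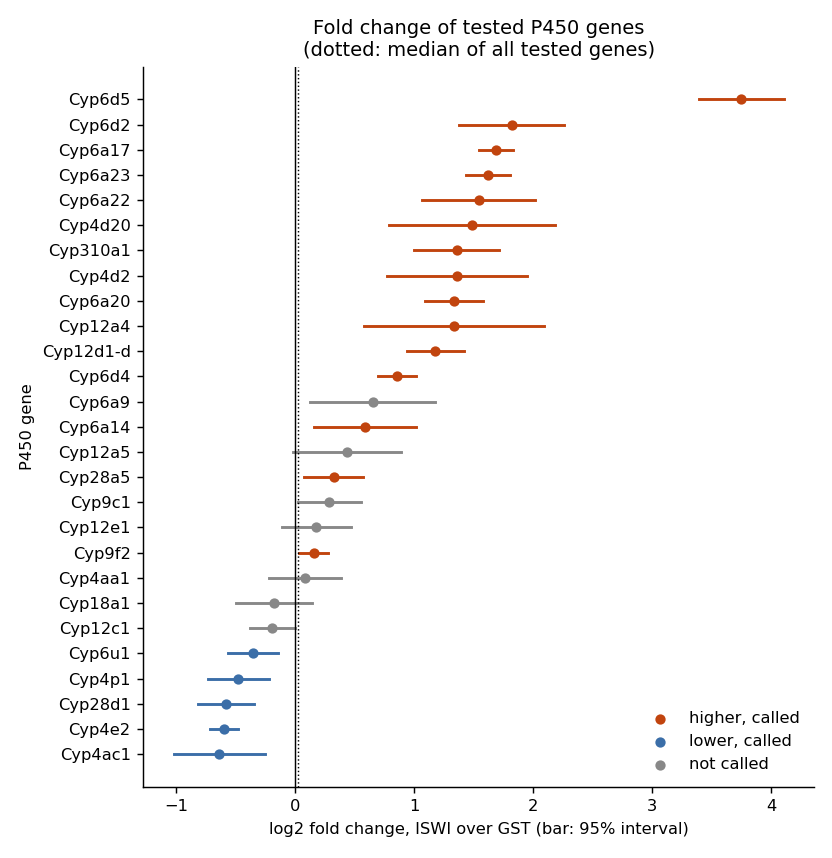
Log2 fold change of ISWI over GST (x axis, points, with 95% intervals from limma) for the 27 tested P450 genes (y axis), coloured by call, with a dotted line at 0.03, the median of all tested genes. The fitted values of Cyp6d2, Cyp4d20 and Cyp6a9, at the floor in GST cells, are no measured folds. The called rises ran from 0.16 to 3.75 and the called falls from -0.35 to -0.64.

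The falls were smaller than many of the rises. Called P450 genes that were lower had log2 fold changes of -0.35 to -0.64, while 9 of the 15 higher genes rose by at least 1 on the log2 scale with lower bounds used for genes at the floor. By position, 13 of the 27 tested genes were on arm 2R, of which 7 were higher and 3 lower, against 22.9% and 18.4% of all tested genes of that arm. On 2L 2 of 4 were higher and 2 lower, against 26.2% and 19.9% of that arm. On 3R 4 of 6 were higher and 0 lower, against 24.3% and 16.1%. On 3L 1 of 2 was higher and 0 lower, against 22.8% and 17.1%, and on the X 1 of 2 was higher and 0 lower, against 21.0% and 16.2%. At an unadjusted p under 0.05 limma gave 0 lower genes on 3R, 1 on 3L and 0 on the X.

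Tandem neighbours with a P450 gene were checked throughout. In genome Release 6, 16 groups of 2 or more adjacent P450 genes held 45 genes. In 9 of these groups at least 1 gene was called, in 5 only higher and in 4 only lower. In only 2 groups (the 9-gene group and the Cyp12a5-Cyp12a4 pair) was more than 1 gene tested, so directions could be compared within few of them. In 7 of the 10 groups with a tested gene another member was at the floor on all arrays. Of the non-P450 genes within 3 places of the 9 groups with a call, 25 were tested, of which 2 were higher and 5 lower. The shares over all tested genes were 23.4% higher and 17.6% lower, or 41.1% in either direction. These flanking genes were chosen after their values were seen.

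The ISWI replicates differed from each other more than the GST replicates did. The median SD of the 27 genes was 0.20 in ISWI cells and 0.08 in GST cells, against 0.11 and 0.07 over all tested genes. ISWI replicate 3 was the highest ISWI array for 18 of the 27 genes, or 66.7%, against 37.6% of all tested genes. It exceeded the mean of the other two by over 0.5 in Cyp12a4, Cyp4d20, Cyp12a5 and Cyp6a14, or 14.8% of the tested P450 genes, against 3.54% of all tested genes. This array also had the lowest Iswi value, 7.16, and its part in the result was not tested beyond leaving it out, which gave 14 higher and 5 lower genes and a median of 0.36.

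P450 enzymes need electrons and haem, and genes for both were on the arrays. Of 17 such genes listed, 13 had a probe set of 1 symbol and 12 were tested, of which 6 fell, 1 rose and 5 did not pass, where 17.6% of all tested genes were lower and 23.4% higher. None of the 13 encodes a reductase that supplies P450 enzymes, so electron supply by reductases was not tested. The 12 tested genes had a median fitted log2 fold change of -0.19 against 0.03 for all tested genes. Cyt-b5-r was among the falls but passed the filter only through the GST arrays. Among the 11 genes above 4 on all 6 arrays, 5 fell and 1 rose. The shares over all genes filtered this way were 17.6% lower and 22.8% higher. Among electron carriers, Cyt-b5, for cytochrome b5, read 12.30, 12.29 and 12.30 in ISWI cells, against 12.48, 12.45 and 12.53 in GST cells, and fell by 0.19 (limma adjusted p = 0.00661). The cytochrome b5-like gene CG3566 fell by 0.34 (limma adjusted p = 0.00369). The cytochrome b5-related gene Cyt-b5-r was below 4 on every ISWI array and at 5.34, 4.30 and 5.02 on the GST arrays. It was at least 1.85-fold lower (limma adjusted p = 0.00534), and whether its product passes electrons to P450 enzymes was not tested. The ferredoxin gene Fdx1 rose by 0.25 (limma adjusted p = 0.0399), a call lost under 8 of 16 alternatives. Among these, it was lost when any array but ISWI replicate 1 was left out, at adjusted p = 0.0684 to 0.123. Fdx2, at 0.03, did not pass.

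In haem synthesis, the genes for the enzymes at both ends of the pathway fell. Alas, for the enzyme of the opening step, read 11.34, 11.36 and 11.10 in ISWI cells, against 11.66, 11.80 and 11.79 in GST cells, and fell by 0.48 (standard error 0.08, limma adjusted p = 0.00228). FeCH, for ferrochelatase, which inserts the iron, read 10.46, 10.40 and 10.43 in ISWI cells, against 11.17, 11.15 and 11.32 in GST cells, and fell by 0.78 (standard error 0.06, limma adjusted p = 7.09e-05), and its other tested probe set gave -0.86 and was also called. Coprox fell by 0.28 (limma adjusted p = 0.0108). Pbgs, Uros1, Urod and Ppox, for other steps, did not pass, with log2 fold changes of 0.32, 0.20, -0.19 and 0.12. The P450 transcripts that rose and these haem genes that fell thus came from the same arrays, and protein or haem levels were not measured.

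**Figure D5:**
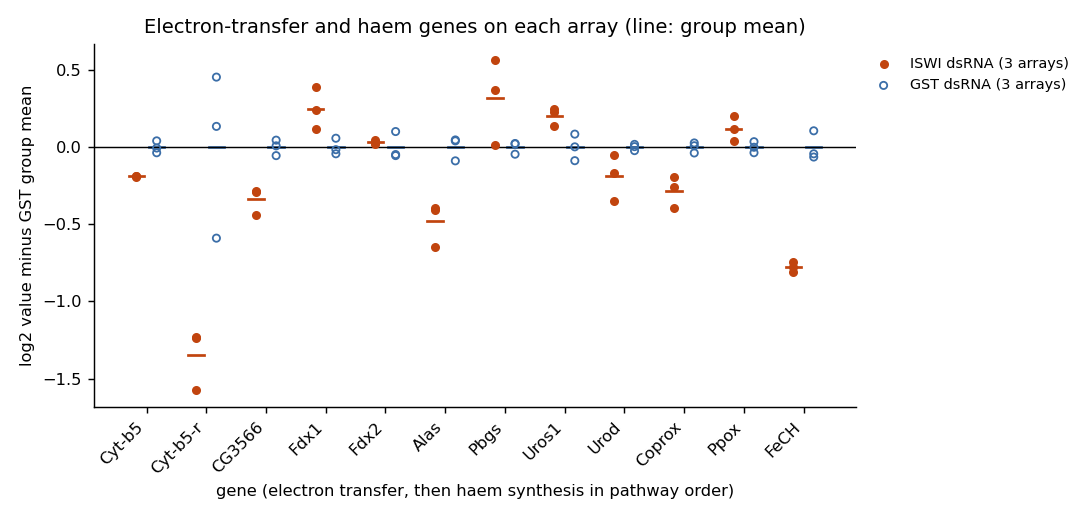
Log2 value minus the GST group mean (y axis) of the 12 tested electron-transfer and haem genes (x axis), with ISWI arrays as filled points left of GST arrays as open points and lines at the group means. Cyt-b5, Cyt-b5-r, CG3566, Alas, Coprox and FeCH lay below every GST array on all 3 ISWI arrays and passed the test. Of all tested genes, 23.7% were lower with no overlap. Cyt-b5-r passed the filter only through the GST arrays, which fixed its lack of overlap in advance. Its plotted difference is no measured fold.

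Of 10 tested genes for regulators of P450 expression, 2 rose, 1 fell and 7 did not pass, where 23.4% of all tested genes were higher and 17.6% lower. The genes tgo, for a partner of bHLH-PAS factors, and Nf-YA rose by 0.26 and 0.22 (limma adjusted p = 0.0433 and 0.0418), and gce, for a juvenile hormone receptor, fell by 0.98 (limma adjusted p = 0.0203). The tgo call was lost without any array but ISWI replicate 1 or 3, and the Nf-YA call without any array but ISWI replicate 1. The gce call was lost without GST replicate 2 or 3. Over all alternatives of filter, scaling, model or arrays, the tgo, Nf-YA and gce calls were lost under 7, 9 and 3 of 16. The xenobiotic regulators cnc, Keap1 and Hr96 had log2 fold changes of 0.18, 0.19 and 0.23 and did not pass (limma adjusted p = 0.104, 0.151 and 0.0852).

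Most markers of tissues known for P450 expression were at the floor in both groups. The 5 fat body genes with a probe set of 1 symbol (of 7 listed), the 3 Malpighian tubule genes (of 5) and the 7 prothoracic gland genes (of 7) stayed at or below 4 on all 6 arrays, with values of 1.98 to 2.67, and their summed log2 values were 11.99 to 12.11 in ISWI cells and 12.04 to 12.20 in GST cells for fat body, 7.45 to 7.49 in ISWI cells and 7.47 to 7.56 in GST cells for the tubule, and 15.70 to 15.75 in ISWI cells and 15.73 to 15.87 in GST cells for the prothoracic gland. Of 4 midgut genes 2 (alphaTry and betaTry) were at the floor. The midgut protease gene Try29F did not pass, and LManII, a mannosidase gene, rose by 0.32 (limma adjusted p = 0.0244). Over these 4 genes the summed log2 values were 19.13 to 20.25 in ISWI cells and 19.50 to 20.37 in GST cells. The ecdysone-making P450 genes that carry other names (spo, spok, phtm, dib, sad and shd) were also at or below 4 on all arrays.

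The cyclophilin genes that share the Cyp prefix behaved unlike each other. Cyp40, whose mammalian counterpart is a co-chaperone of Hsp90, read 6.39, 6.32 and 6.25 in ISWI cells, against 8.32, 8.41 and 8.35 in GST cells. It fell by 2.04 on the log2 scale (standard error 0.08, limma adjusted p = 3.78e-06), or 4.10-fold, with replicates of each group close together, a larger fall than that of any P450 gene. Cyp1 read 14.13, 14.09 and 14.11 in ISWI cells, against 14.16, 14.18 and 14.21 in GST cells, and did not pass (limma adjusted p = 0.0795).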

How the data were processed

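The measurements are the log2 values per probe set deposited by the authors, made with GCRMA per the submitters' processing notes; neither its version nor the array type is given in the sources used here. GCRMA generally adjusts background by probe sequence, so dim probe sets sit at a near-constant floor. The P450 members, the other lists and the tests were chosen with earlier results of these data known. Apart from 183 control probe sets, 18769 remained, and the platform annotation paired 13646 of them with a single symbol. A RefSeq gene table (Release 6) held 13543 of these and supplied current names and gene order. A probe set was tested if it exceeded 4 on 3 or more arrays, which 7390 did. The test was two-sided, by limma (version 3.58.1, R 4.3.3) with an intensity trend, and p-values were adjusted by Benjamini-Hochberg over every tested probe set, at a threshold of 0.05. Each gene was represented by its brightest tested probe set. Every tested member is named. If a whole group lay at or below 4, the fold compares the brighter group's mean with 4 and is a lower bound. The genes flanking tandem groups were chosen after their values were seen. In 10 simulations modelled on this comparison over 7390 probe sets, log2 changes of 0.5, 1 and 2 were found in 65.7%, 91.6% and 99.1% of cases, and 5.11% of calls were false. They changed few probe sets and gave both groups the same normal spread. In the data 41.1% of tested genes were called, and the SD was larger in ISWI cells for 71.8%, so these rates need not hold for the data. Alternatives varied the filter, scaling, model, threshold and arrays used. The number of arrays limits the precision.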

Additional observations from a re-analysis of the deposited data

Results flagged for a closer look

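Signal also appeared in probe sets that the comparisons did not use. A probe set annotated to both Cyp12d1-d and Cyp12d1-p, and so left out by the rule of 1 symbol, read 9.81, 9.83 and 10.04 in ISWI cells, against 8.95, 8.96 and 8.89 in GST cells, a difference of 0.96 on the log2 scale (limma adjusted p = 8.27e-05). Cyp6a13, which passed the level of 4 on too few arrays to be tested, read 4.23, 3.91 and 5.39 in ISWI cells, against 3.18, 3.42 and 3.34 in GST cells, a difference of means of 1.199. Cyp318a1, left out for the same reason, read 4.23, 4.13 and 3.804 in ISWI cells, against 3.801, 3.42 and 3.73 in GST cells, a difference of 0.41. For both of these genes all GST values were at or below 4, so the differences are no measured folds, and the ISWI means were at least 1.43-fold higher for Cyp6a13 and at least 1.04-fold higher for Cyp318a1. These differences were not tested.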

How the results depend on the processing

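Up to 16 alternatives of filter, scaling, model, probe sets or arrays kept the adjusted p threshold of 0.05 and set no fold limit. Of the 20 called P450 genes, 14 (11 higher, 3 lower) were called under each of these in which they were tested. Among the 11, Cyp6d2, Cyp4d20 and Cyp4d2 were tested under only 14 alternatives. They were too dim for the level of 5 and for the level of 4 on all 6 arrays, so those filters could not challenge their calls. Cyp12a4, Cyp28a5, Cyp4ac1, Cyp6a14, Cyp6u1 and Cyp9f2 lost the call under at least 1. P450 genes called lower numbered 2 at an adjusted p of 0.01, 2 at 1.5-fold or more, and 3 to 5 without single arrays. Higher Cyp4 genes numbered 0 at a level of 5 and 0 at a level of 4 on all arrays, and lower ones 1 at an adjusted p of 0.01. Lower Cyp6 genes numbered 0 at that p, 0 at 1.5-fold and 0 to 1 without single arrays, and higher Cyp12 genes 1 at that p and 1 to 2 without single arrays. Higher electron-transfer and haem genes by limma numbered 0 with no filter, with quantiles again, with the replicate block, at an adjusted p of 0.01 and at 1.5-fold (2 to 3 at an unadjusted p under 0.05), and 0 to 2 without single arrays, and lower ones 2 at 1.5-fold. With no filter, which adds the genes at the floor, the P450 median was -0.0046, and Cyp4aa1, not called, was at -0.0603 with quantiles again. The replicate block gave 15 higher P450 genes, 14 of them shared, with Cyp9f2 lost and Cyp6a9 gained, and 5 lower. Deviations of same-numbered arrays correlated at -0.18, 0.12 and 0.06, so the numbers were not taken to pair the samples. The cause of these shifts was not tested.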
